A study of Mus musculus with 54 samples.

Results

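Among unsorted myeloid progenitors of mouse bone marrow, 163 of 2732 cells (5.97%, exact Clopper-Pearson 95% interval 5.11 to 6.92) carried both the carbonic anhydrase gene Car1 and adult globin transcripts. These globin-expressing erythroid progenitors were picked by their own counts of unique molecular identifiers (UMIs, random tags that let each captured mRNA be counted once). A well belonged to the set when it had received 1 cell and held at least 500 UMIs, when Car1 made up at least 0.2% of those UMIs, and when Hba-a2, Hbb-b1 and Beta-s together had at least 3 UMIs. Car1 and the 3 globin genes therefore chose the members, and their values are given as a description with no test. All other genes and the surface proteins were not used in the choice, although they were read in the same wells and share the depth of those wells.

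Red blood cells arise from megakaryocyte and erythroid progenitors through burst-forming and colony-forming stages that depend on Kit signalling and then on erythropoietin. The transcription factors Gata1, Klf1, Tal1 and Zfpm1 (also called Fog1) switch on the globin genes, the enzymes of heme synthesis and the proteins of the red cell membrane, while Gata2, Myb and Kit are shut down. Carbonic anhydrase 1 appears early in this course, and adult globin mRNA accumulates later, over several divisions, until it dominates the transcriptome of the erythroblast. Adult hemoglobin joins alpha chains, from Hba-a1 and Hba-a2, to beta chains, from Hbb-b1, Hbb-b2 or, in the single haplotype of C57BL/6, the genes Hbb-bs and Hbb-bt.

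The cells were profiled by MARS-seq, in which sorted cells are lysed in separate wells, 3′ ends of mRNA are barcoded, and the wells of a pool are then amplified in 1 tube. The 16 unsorted pools, labelled Unsorted myeloid, came from wild type C57BL/6 mice aged 6 to 8 weeks, sorted as Lin- cKit+ Sca1- after magnetic enrichment for cKit. They filled 8 plates sequenced in 2 batches (SB17, replicates 1 to 4, and SB19, replicates 5 to 16), and the well table gives all of them 1 mouse identifier. The pool is the unit of every test below, so p-values measure only the spread between pools, which may be technical. Other pools of the series, used at the end, held a Cebpa knockout labelled Cebpa(flox/flox)Mx1-Cre, its control, and 3 gates of common myeloid progenitors (CMP), also from mice aged 6 to 8 weeks. Mx1-Cre is induced by interferon in many cell types, and both Cebpa groups are labelled as treated with poly(I:C), which raises interferon.

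Pools held between 482844 and 854479 UMIs, and 2732 of 3040 wells with a cell (89.9%) passed the UMI minimum. Wells that received no cell, 2 per pool, held a mean of 12.5 to 67 UMIs. All 16 pools used the same 192 cell barcodes, and 0 combinations of pool and cell barcode were shared. Replicates 3, 4, 15 and 16, from 2 plates, stood apart in surface intensity, and surface results are given with and without them.

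Members were found in every unsorted pool, with a mean share of 6.01% ± 2.03 (SD, n = 16). The lowest share was 1.09% in replicate 15, the median over pools 6.20%, and the highest 9.60% in replicate 2. In batch SB17 47 of 700 cells (6.71%) were members, and in batch SB19 116 of 2032 (5.71%). Replicates 15 and 16, which shared a plate, held 2 and 4 members, 1.67% of that plate's cells, against 5.62% to 7.73% on the other 7 plates. Members made up 5.50% of the Car1 cells on that plate and 13.2% to 19.0% of those on the others. Single pools rest on 2 to 17 members each, and intervals here cover counting error only.

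**Figure D1:**
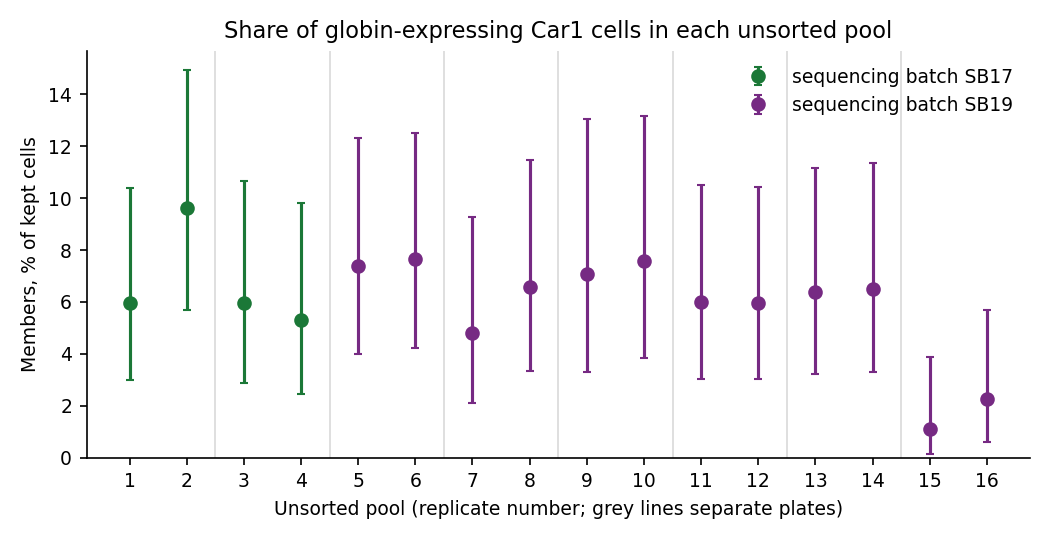
Share of globin-expressing Car1 cells (y axis, percent of kept cells) in each of 16 unsorted pools (x axis, replicate number), with exact 95% intervals for counting error. Colours give the sequencing batch and grey lines separate plates. Replicates 15 and 16 lie lowest, at 1.09% and 2.26%, and replicate 2 highest, at 9.60%.

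The threshold of 3 globin UMIs cut through a continuous range. Of the members, 49 had exactly 3 globin UMIs, 29 had 4, and 29 had 10 or more. Just outside it, 71 Car1 cells had 2 globin UMIs, 162 had 1 and 647 had 0. On the Car1 side, 17 members had Car1 between 0.2% and 0.3% of UMIs, and 37 cells with at least 3 globin UMIs fell under 0.2%, 17 of them at 0.1% or more. Requiring 10 globin UMIs left 29 cells (1.06%), globins at 0.1% or more of UMIs left 67 (2.45%), and Car1 at 0.5% left 85 (3.11%).

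Depth moved with membership. Members had a median of 5782 UMIs per cell (range 1564 to 18841, pool medians 4582 to 8267), Car1 cells with 0 to 2 globin UMIs (globin-low Car1 cells below) 4141, and all other cells 2940. The rule counts globin UMIs, so the share of members is a share at this depth. With membership read from wells thinned to 1000 UMIs (at least 2 Car1 and 1 globin UMI) the share was 6.70%. Replicate 15 then held 10 members beside 149 other cells, and the lowest pool share was 3.23%. When each well was thinned to 1000 UMIs, 62.6% of members still showed a globin UMI, against 7.46% of globin-low Car1 cells and 3.96% of cells with Car1 under 0.2%.

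Background was read in cells that should lack globin. None of the 32 wells without a cell held a globin UMI in 1305 UMIs. Among 971 cells rich in neutrophil granule transcripts (Elane, Prtn3, Mpo and Ctsg at 2% or more of UMIs, median 3047 UMIs), 53 (5.46%) had at least 1 globin UMI and 0 had 3 or more, which allows a share of up to 0.309%. At 1000 UMIs per well, 1.57% of these granule-rich cells showed a globin UMI.

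Adult globin transcripts were sparse in the members, with a median of 5 UMIs per cell, 0.0787% of a cell's UMIs (range 0.0179% to 2.51%). Hba-a2, an alpha globin gene, stood at 397 CPM (counts scaled to 1e+06 UMIs of the class in a pool) in the lowest pool, 700 in the median and 1678 in the highest, and 160 of 163 members had at least 1 UMI of it. The beta globin gene Hbb-b1 had 71.0, 216 and 669 CPM in the lowest, median and highest pool and was seen in 95 members. Beta-s, the symbol the count table uses for the beta globin of the C57BL/6 haplotype, had 30.5, 151 and 827 CPM and was seen in 74 members. In globin-low Car1 cells the 3 genes stood at 52.8, 17.9 and 9.20 CPM, which the rule sets. Car1 itself ranged from 3465 to 5854 CPM over pools of members (median 5269), below its 6448 CPM in the globin-low Car1 cells.

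A few cells held much of the globin signal. The members carried 1344 globin UMIs, of which the 10 richest cells, from 8 pools, held 452 (33.6%) and the single richest 135. Alpha and beta transcripts were seen together in 116 members, alpha alone in 44 and beta alone in 3, and 48 members had all 3 genes. Alpha UMIs (796) outnumbered beta UMIs (548) by 1.45 to 1 over all members, and in 14 of 16 pools. In replicate 6 the counts were equal at 69 each, and in replicate 12 beta was ahead, 114 to 74.

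Several genes a reader would look for could not be read. Hba-a1, the globin chaperone gene Ahsp, Hbb-b2, Hbb-bs and Hbb-bt had no row of their own in the count table. The reference transcripts of Hba-a1 and Hba-a2 were identical at 537 of 538 aligned bases (99.8%), and those of Hbb-bs and Hbb-bt at 575 of 616 (93.3%), so a value printed under 1 copy may include reads of another. The embryonic globin genes Hba-x and Hbb-y had 0 UMIs in the unsorted pools.

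The stretches just upstream of the annotated start are shown for both globins of the rule that have an entry and for the globin activator Klf1. They are also shown for 3 genes that rose in the results below, namely Hemgn, Prdx2 and Tmem14c. Each is the 150 bases before the start in RefSeq (GRCm38.p6), 5′ to 3′ on the gene's strand, so these coordinates are not on the mm9 build that the submitters' processing notes name. Capitals mark CACCC, the core of the sequence that Klf1 binds, and CCAAT, the box bound by NF-Y, on the strand shown.
Hba-a2 (chr11:32296342-32296491, plus strand): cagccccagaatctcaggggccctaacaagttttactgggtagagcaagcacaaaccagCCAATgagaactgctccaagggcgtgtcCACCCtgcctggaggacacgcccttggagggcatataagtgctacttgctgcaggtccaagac
Beta-s (Hbb-bs in RefSeq, chr7:103827929-103828078, minus strand): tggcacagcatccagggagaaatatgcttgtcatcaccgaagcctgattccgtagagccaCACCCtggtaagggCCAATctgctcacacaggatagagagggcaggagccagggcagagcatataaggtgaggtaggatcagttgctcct
Klf1 (chr8:84901832-84901981, plus strand): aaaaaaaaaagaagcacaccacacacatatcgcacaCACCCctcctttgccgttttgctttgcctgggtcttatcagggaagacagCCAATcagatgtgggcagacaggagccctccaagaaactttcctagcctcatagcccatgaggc
Hemgn (chr4:46404184-46404333, minus strand): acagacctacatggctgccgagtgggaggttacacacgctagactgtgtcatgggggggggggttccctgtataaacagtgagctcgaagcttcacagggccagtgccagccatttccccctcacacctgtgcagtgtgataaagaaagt
Prdx2 (chr8:84969472-84969621, plus strand): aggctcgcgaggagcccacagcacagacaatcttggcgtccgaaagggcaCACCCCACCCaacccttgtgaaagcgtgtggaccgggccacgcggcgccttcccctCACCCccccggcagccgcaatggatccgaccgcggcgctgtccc
Tmem14c (chr13:41016100-41016249, plus strand): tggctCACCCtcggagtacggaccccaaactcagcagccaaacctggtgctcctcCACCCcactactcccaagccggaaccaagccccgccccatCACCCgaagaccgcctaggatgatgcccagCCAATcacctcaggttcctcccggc

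In the Hba-a2 window CCAAT lay 91 to 87 bases and CACCC 63 to 59 bases before the start. In that of Beta-s the order was the opposite, with CACCC at 90 to 86 and CCAAT at 76 to 72 bases before the start. Klf1 held both, Tmem14c held CCAAT once and CACCC 3 times, Prdx2 held CACCC 3 times, and Hemgn held neither. AGATAA, the only form of the Gata motif looked for, was searched on both strands like the others and was in none of the 6 windows. Other forms of the Gata motif were not searched and may be present. Over 32851 RefSeq promoter windows of the same length, CACCC occurred on either strand in 37.4%, CCAAT in 24.5% and AGATAA in 5.65%, so CACCC or CCAAT alone is common. The windows of Hba-a1 and Hba-a2 agreed at 147 of 147 aligned bases.

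Surface proteins, recorded for each cell at the sort and not used by the rule, placed the members at the low end for both CD34, a marker of earlier progenitors, and FcgR, the Fc gamma receptors of granulocyte and monocyte progenitors. Pool medians of CD34 among members were 36 at the lowest, 46 in the median and 147 at the highest, in the deposited index-sort intensities, whose unit is not stated, against 80, 133 and 294 among all other cells. Members were lower in 16 of 16 pools, by 99.6 (55.9 ± 27.7 against 155.5 ± 67.6, SD, n = 16; exact paired permutation test, two-sided, p = 3.05e-05, the smallest that 16 pools allow; adjusted p = 4.07e-05 over 4 tests). Of the members' pool medians, only those of replicates 15 (147) and 16 (81.5), with 2 and 4 members, reached the range of the other cells. FcgR medians ran from -4 to 21 among members, with a median of 9.5, and from 147 to 489 among all other cells, so these ranges did not overlap. The mean difference was -282 (8.53 ± 7.28 against 291 ± 96.9; exact paired permutation, adjusted p = 4.07e-05).

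Cell by cell, 158 of 163 members lay below the unsorted medians of both CD34 (130) and FcgR (217.5), as did 996 of 2545 other cells (39.1%). No member lay above both. FcgR was at or below 0 in 61 members (37.4%). Most globin-low Car1 cells lay low too. Of 878, 822 (93.6%) lay below the CD34 median and 803 (91.5%) below the FcgR median, each marker taken alone. FcgR was at or below 0 in 152 of them (17.3%).

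Against globin-low Car1 cells, FcgR was still lower in members in 16 of 16 pools, at 8.53 ± 7.28 against 32.1 ± 6.57 (difference -23.6, exact paired permutation, adjusted p = 4.07e-05), and those pool medians (22 to 42) lay above the members' range of -4 to 21. CD34 did not set members apart from these cells in the same way. Its pool medians were higher in members in 12 of 16 pools, 55.9 ± 27.7 against 47.75 ± 16.3 (difference 8.19, exact paired permutation, p = 0.0346, adjusted p = 0.0346). With the mean of each pool in place of the median the difference was -2.14 (adjusted p = 0.741), and with membership read from thinned wells 0.78 (adjusted p = 0.678). Without the 2 plates that stood apart, differences were -76.0 and -299 against all other cells and 4.92 and -23.3 against globin-low Car1 cells, for CD34 and FcgR in that order, and the calls held. In batch SB17, whose 4 pools cannot give a p below 0.125, they were -142.6, -302.25, 3.75 and -22.1. With members limited to 10 or more globin UMIs (29 cells in 13 pools), FcgR differed from Car1 cells with fewer globin UMIs by -12.6. It was then lower in 9 pools and higher in 3 (exact paired permutation, adjusted p = 0.0703), so that call was lost.

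**Figure D2:**
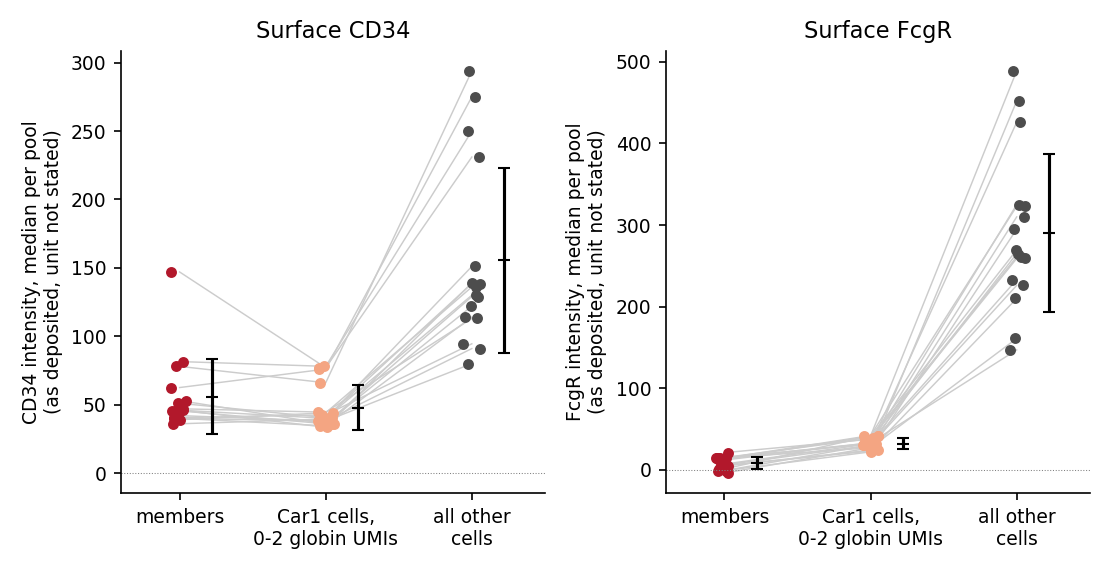
Surface CD34 and FcgR (y axes, deposited intensity, unit not stated, median of the cells in a pool) in members, in Car1 cells with 0 to 2 globin UMIs and in all other cells. Points are 16 unsorted pools, grey lines join classes of 1 pool, and black bars give mean and SD. FcgR of members sits between -4 and 21, under the other classes in every pool.

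Genes per cell differed little once depth was equal. In wells thinned to 1000 UMIs, members showed 749 ± 13.6 genes (SD, n = 16) and all other cells 738 ± 14.3, a difference of 11.5 genes in favour of members in 15 of 16 pools (exact paired permutation, two-sided, p = 0.000122, adjusted p = 0.000244 over 2 comparisons). The difference from globin-low Car1 cells was 1.56 genes (p = 0.45).

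Expression was then compared within pools. UMIs were summed over members and over the cells they were compared with, in the 11 pools with at least 10 members, and tested with edgeR. Against all other unsorted cells, 692 of 4672 genes rose in members (14.8%) and 800 fell (17.1%), at an adjusted p under 0.05. In the comparison with globin-low Car1 cells 225 of 2833 genes rose (7.94%) and 174 fell (6.14%). These counts leave out Car1 and the globin genes that chose the members. Batch SB17 alone, with 3 pools, called 270 and 444 genes against all other cells, and wells of 4000 to 8000 UMIs 308 and 275 of 2428. The second comparison moved more with the settings: DESeq2 called 116 and 81 genes, a fit without the pool as a block 148 and 107, membership from thinned wells 126 and 98, and batch SB17 alone 46 and 44. Restricted to wells of 4000 to 8000 UMIs in both classes it called 113 and 74 of 1616, and batch SB19 alone, with 8 pools, 192 and 123 of 3074. The median log2 ratio over all genes tested was 0.01 in both comparisons.

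The genes with the largest increase over all other cells included several of the red cell membrane and of erythroid differentiation. Ctse, which encodes the aspartic protease cathepsin E, stood at 696, 887 and 1148 CPM in the lowest, median and highest pool of members and at 134, 246 and 302 in other cells. It rose by 1.90 ± 0.08 on the log2 scale (SE; adjusted p = 3.82e-59), and the pool ranges did not overlap. Over globin-low Car1 cells (244, 360 and 393 CPM) Ctse rose by 1.36 ± 0.08, again without overlap. Hemgn, which encodes the nuclear protein hemogen of blood precursors, had 266, 468 and 626 CPM in members, 60.9, 133 and 169 in all other cells and 135, 197 and 231 in globin-low Car1 cells. Its log2 ratios were 1.73 ± 0.11 and 1.25 ± 0.11, and members lay above both classes in every pool. Pool ranges of members lay fully above the other class for 1.84% of genes tested in the first comparison and for 0.459% in the second.

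Other genes with the largest increases over all other cells were Aldh1a1 (1.82), a retinaldehyde dehydrogenase gene, Fads3 (1.72), of fatty acid desaturation, Tmem8 (1.65), Mgll (1.55), which encodes monoacylglycerol lipase, Sh2d4a (1.44) and the transporter gene Abcg4 (1.43). The largest increase over globin-low Car1 cells was that of 1190002H23Rik, at 103, 175 and 253 CPM in members against 37.8, 60.2 and 80.1, a log2 ratio of 1.57 ± 0.18 with no overlap. The same gene had a log2 ratio to all other cells of -0.30 with adjusted p = 0.0687. Tmem8 (1.35), Aldh1a1 (1.23), Mgll (1.04), the solute carrier gene Slc43a3 (0.91) and the joined row Ubac1;Ubadc1 (0.88) also rose there.

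**Figure D3:**
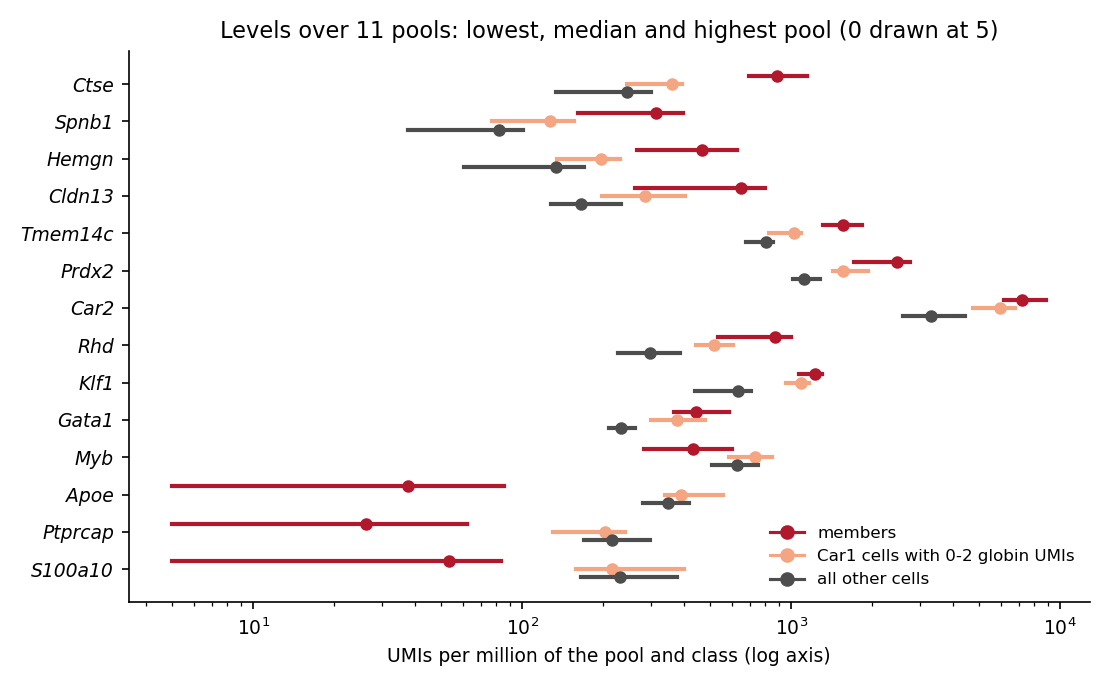
Levels of named genes (x axis, CPM of the class in a pool, log axis, 0 drawn at 5) in members, Car1 cells with 0 to 2 globin UMIs and all other cells. Lines run from the lowest to the highest of 11 pools and points mark the median pool. Ctse, Spnb1 and Hemgn of members lie fully above both other classes, Apoe, Ptprcap and S100a10 fully below.

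Most of the heme synthesis genes that could be tested rose in members. Of 17 listed, 12 could be tested against all other cells, of which 10 rose and 2 fell (median log2 ratio 0.98, against 0.01 over all genes), and 11 against globin-low Car1 cells, of which 10 rose and 1 fell (median 0.54). Tmem14c, whose product carries protoporphyrinogen into the mitochondrial matrix, had 1311, 1558 and 1828 CPM in the lowest, median and highest pool of members against 830, 1020 and 1086 in globin-low Car1 cells (log2 ratio 0.65 ± 0.06), without overlap. The uroporphyrinogen synthase gene Uros (1.04), the coproporphyrinogen oxidase gene Cpox (0.52), Ppox (0.84), the ferrochelatase gene Fech (0.54), the glycine transporter gene Slc25a38 (0.76), Alad (0.42), Urod (0.27) and Abcb6 (0.53) rose too, with overlapping ranges.

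Genes of the first enzyme of the pathway were read at low levels in the members. Alas1, the aminolevulinate synthase gene of most tissues, stood at 62.3 CPM in members and 503 in all other cells and fell by 3.05 ± 0.14 on the log2 scale (adjusted p = 1.4e-51). Globin-low Car1 cells were low in Alas1 as well. Over all pools it stood at 63.5 CPM in members, 80.2 in those cells and 796 in cells with Car1 under 0.2%. Alas2, the erythroid form, had 11 UMIs in members, 2 in globin-low Car1 cells and 3 in cells with Car1 under 0.2%, which is 10.3, 0.526 and 0.600 CPM, too few to test. Slc25a39, a mitochondrial carrier gene, fell by 0.52 and 0.38 in the 2 comparisons. Its call against Car1 cells was lost without replicate 6, 12 or 13 (adjusted p up to 0.085) and with DESeq2 (adjusted p = 0.151).

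The iron genes that passed the test all rose. Of 9 tested against all other cells 5 rose and 0 fell (median 0.64), and of 8 tested against globin-low Car1 cells 3 rose and 0 fell (median 0.24). Those 3 were the ferritin heavy chain gene Fth1 (3320 against 2413 CPM, 0.46 ± 0.04), the light chain gene Ftl1 (0.36) and Glrx5 (0.32), whose product serves iron-sulfur cluster assembly. Tfrc, the transferrin receptor gene, was sparse, with 44 UMIs in members, and stood at 41.1 CPM against 33.4 in globin-low Car1 cells, so it was not tested. The mitochondrial iron importer gene Slc25a37 had 49 UMIs in members.

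Genes of the red cell membrane skeleton and blood groups rose in 18 and fell in 2 of 21 tested against all other cells (median 0.90). Of 19 tested against globin-low Car1 cells 10 rose and 1 fell (median 0.37). Spnb1, the erythroid beta spectrin gene, had 161, 315 and 397 CPM over pools of members, 37.5, 82.2 and 101 in all other cells and 77.2, 127 and 156 in globin-low Car1 cells. Its log2 ratios were 1.85 ± 0.13 and 1.29 ± 0.13, and members lay above both classes.

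Cldn13, which encodes a claudin of erythroid cells, had 263, 650 and 799 CPM in members and 198, 287 and 404 in globin-low Car1 cells (1.14 ± 0.09), with overlapping ranges. Rhd (0.73) and Rhag (0.57) of the Rh complex, the ankyrin gene Ank1 (0.68), the adducin gene Add2 (0.63), Ermap (0.37), Epb4.1 (0.38), which encodes protein 4.1, and the water channel gene Aqp1 (0.20, adjusted p = 0.0404) rose in the same comparison. The alpha spectrin gene Spna1 rose by 1.81 over all other cells and was too sparse for the comparison with Car1 cells. Kel, of the Kell blood group, rose over all other cells (1.10) and had a log2 ratio of 0.35 against Car1 cells (adjusted p = 0.198). Tpm3, a tropomyosin gene, fell in both (-1.52 and -0.52). Slc4a1, which encodes band 3 of the mature membrane, had 6 UMIs in members, 2 in globin-low Car1 cells and 1 in cells with Car1 under 0.2%.

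Genes of terminal maturation rose in 11 and fell in 1 of 16 tested against all other cells (median 0.66), and in 6 and 0 of 12 against globin-low Car1 cells (median 0.33). Besides Hemgn these 6 were the exonuclease gene Isg20 (0.81), the ubiquitin ligase gene Mkrn1 (0.73), the tetraspanin gene Tspan33 (0.70), the sphingosine kinase gene Sphk1 (0.46) and Ucp2 (0.30), of a mitochondrial carrier. With the members limited to 10 or more globin UMIs, Sphk1 had a log2 ratio of -0.0017 (adjusted p = 0.998).

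Redox and carbonic anhydrase genes rose in 9 and fell in 2 of 17 tested against all other cells, and in 7 and 1 of 16 against globin-low Car1 cells. Car2, the carbonic anhydrase 2 gene, was the most abundant of them, at 7425 CPM in members, 5838 in globin-low Car1 cells (0.35 ± 0.03) and 3455 in all other cells (1.05 ± 0.04). Prdx2, a peroxiredoxin gene that is abundant in red cells, stood at 2372 CPM against 1584 in globin-low Car1 cells (0.58 ± 0.05, adjusted p = 4.21e-27). The biliverdin reductase gene Blvrb (0.33), the superoxide dismutase gene Sod1 (0.20) and the glutathione peroxidase gene Gpx1 (0.13) rose there too, while Prdx6 fell (-0.38). Gpx1 fell against all other cells (-0.27), so its direction depended on the cells it was compared with.

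Erythropoietin receptor signalling was represented by few tested genes, 1 risen and 3 fallen of 6 against all other cells and 1 risen and 1 fallen of 5 against globin-low Car1 cells. Epor, the receptor gene itself, stood at 266, 457 and 600 CPM over pools of members and at 84.4, 195 and 249 in all other cells, without overlap (1.21 ± 0.10). It rose over globin-low Car1 cells (321 CPM on average, against 455 in members) by 0.51 ± 0.10, with overlapping ranges. The kinase gene Lyn (-2.09) and the phosphatase gene Ptpn6 (-0.65) fell against all other cells. Kit, the stem cell factor receptor gene and the third to fall, was read in a row joined with AK047175 and is uncertain. That row stood at 87.8 CPM in members, 178 in globin-low Car1 cells (-0.97 ± 0.17, adjusted p = 1.22e-06) and 143 in all other cells (-0.72 ± 0.18). All cells had been sorted as positive for surface cKit.

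Transcription factors of the erythroid program moved in both directions, with median ratios above 0. Against all other cells 11 of 21 rose and 5 fell (median 0.33), among them Gata1 (460 against 233 CPM, 0.92 ± 0.09), Klf1 (1212 against 628, 0.89 ± 0.06), Zfpm1 (0.79), the repressor gene Gfi1b (0.85), Klf3 (1.11) and Tal1 (0.72). Against globin-low Car1 cells 4 rose and 3 fell of 21 (median 0.15). Klf3 rose by 0.63 (adjusted p = 0.000131), Gata1 by 0.26 ± 0.09 (adjusted p = 0.0375), Klf1 by 0.18 ± 0.06 (0.0247) and Zfpm1 by 0.19 ± 0.07 (0.0422). The last 3 calls were fragile. DESeq2 gave adjusted p = 0.196, 0.134 and 0.18, and the Gata1 call was lost without replicate 1, 2, 5, 6, 8, 11 or 12 (adjusted p up to 0.155), that of Klf1 without 2, 3, 5, 6, 8, 10 or 11 (up to 0.0749) and that of Zfpm1 without 1, 3, 5, 6, 8, 10, 12 or 13 (up to 0.126). Gfi1b had a log2 ratio of 0.24 (adjusted p = 0.0773).

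Myb, a factor of proliferating progenitors, fell in both comparisons. It stood at 284, 431 and 599.8 CPM in the lowest, median and highest pool of members and at 589, 734 and 845 in globin-low Car1 cells (-0.80 ± 0.08, adjusted p = 1.19e-17), lower in 11 of 11 pools with a slight overlap of ranges. Cbfa2t3, which encodes a corepressor of the Gata1 and Tal1 complex, fell against globin-low Car1 cells (-0.47), as did Trim28 (-0.23). Among factors of early progenitors 1 rose and 7 fell of 9 against all other cells (median -1.88). Gata2 stood at 20.3 against 106 CPM (-2.37 ± 0.27), Myc fell by 0.29 and, against globin-low Car1 cells, by 0.43, and Nfia rose by 0.81. Gata2 had 21 UMIs in members (19.6 CPM), 449 in globin-low Car1 cells (118 CPM) and 539 in cells with Car1 under 0.2% (108 CPM). Of the listed myeloid factors 3 of 3 tested against all other cells fell, namely Irf8 (-5.08), Cebpa (-4.36) and, by less, Nfkbia (-1.15). Against globin-low Car1 cells 0 of the listed factors could be tested. Sfpi1, the gene of PU.1, was read outside the list, which holds it under another symbol, and fell against all other cells (-4.39). Over all pools members held 8 UMIs of Cebpa and 10 of Sfpi1.

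**Figure D4:**
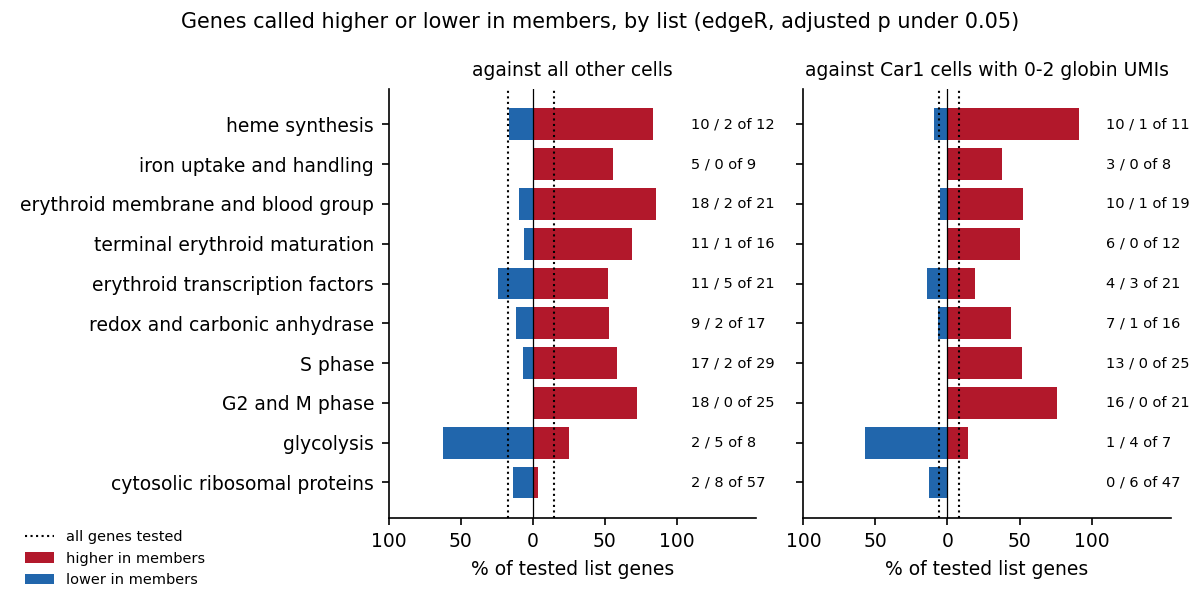
Percent of the tested genes of 10 lists that were called higher (red, to the right) or lower (blue, to the left) in members, against all other cells and against Car1 cells with 0 to 2 globin UMIs (edgeR, adjusted p under 0.05). Numbers give genes higher, genes lower and genes tested, and dotted lines the same percentages over all genes tested (14.8 and 17.1, 7.94 and 6.14). Heme synthesis has 10 of 11 genes higher in the second comparison, cytosolic ribosomal proteins none of 47.

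Many cell cycle genes rose in members in both comparisons. Against all other cells 17 of 29 tested S phase genes rose and 2 fell (median 0.30), and 13 rose and 0 fell of 25 against globin-low Car1 cells (median 0.26). Of G2 and M phase genes 18 of 25 and 16 of 21 rose and 0 fell (medians 0.45 and 0.44). Rrm2, the ribonucleotide reductase subunit gene, stood at 176, 249.9 and 418 CPM over pools of members and at 110, 154 and 250 in globin-low Car1 cells (0.78 ± 0.13), higher in 11 of 11 pools with overlapping ranges. The thymidine kinase gene Tk1 (0.63), the replication licensing gene Mcm4 (0.62), the proliferation marker Mki67 (0.54), the mitotic ubiquitin enzyme gene Ube2c (0.44), the spindle motor gene Kif11 (0.67) and the kinetochore gene Cenpf (0.60) rose in the same comparison. Ccnd2, a D-type cyclin gene read in a row joined with CYL2 and so uncertain, fell by 1.04.

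The cycle counts changed with the fit and the choice of wells, and the cause was not tested. For globin-low Car1 cells, 7 S phase and 7 G2 and M phase genes were higher in members without the pool as a block, and 8 and 8 with DESeq2. With wells of 4000 to 8000 UMIs in both classes 10 of 21 and 6 of 19 rose, and with membership from thinned wells 10 of 25 and 9 of 20. In batch SB17 alone 1 and 3 rose, and with 10 globin UMIs 7 of 23 and 2 of 20. Globins at 0.1% or more of UMIs left 12 of 24 and 5 of 21. No gene of either list fell in these settings. In the comparison with all other cells, G2 and M phase genes rose in 6 of 20 in wells of 4000 to 8000 UMIs, in 8 of 26 in batch SB17, in 7 of 24 with globins at 0.1% and in 3 of 23 with 10 globin UMIs. S phase genes rose there in 17 of 25, 8 of 29, 12 of 30 and 5 of 28.

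More glycolysis genes fell than rose. Against all other cells 2 rose and 5 fell of 8 (median -0.57), and against globin-low Car1 cells 1 rose and 4 fell of 7 (median -0.30). Pkm2, the pyruvate kinase gene of most proliferating cells, stood at 40.6 against 570.4 CPM in all other cells (-3.95 ± 0.16), while Pklr, which encodes the red cell and liver form, stood at 351 against 152 (1.15 ± 0.11) and rose by 0.44 over globin-low Car1 cells. Gpi1 (-0.60), Aldoa (-0.45) and Ldha (-0.43), of glucose phosphate isomerase, aldolase and lactate dehydrogenase, fell against those cells. Pkm2 was low in Car1 cells with no globin UMI as well, at 51.2 CPM over all pools. Genes of the cell machinery had median log2 ratios near 0. For cytosolic ribosomal proteins, 2 genes were higher and 8 lower of 57 against all other cells (median -0.04), and 0 and 6 of 47 against globin-low Car1 cells (median -0.05; 0 higher at an unadjusted p under 0.05, and 0 higher and 1 lower with DESeq2). Over all genes tested, 14.8% were higher and 17.1% lower in the first comparison, and 7.94% and 6.14% in the second. The share of ribosomal protein genes lower in members was under that of all genes in the first comparison and above it in the second. Respiratory chain genes had medians of 0.03 and -0.01.

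Of genes for surface antigens used to stage erythroid cells, 3 rose and 4 fell of 12 against all other cells, and 3 rose and 0 fell of 6 against globin-low Car1 cells. Cd24a had 541, 672 and 848 CPM over pools of members and 289, 388 and 465 in globin-low Car1 cells, without overlap (0.82 ± 0.08), Cd82 rose by 0.78 and the basigin gene Bsg by 0.28. Cd34 itself stood at 9.01 CPM in members and 137 in all other cells (-3.90 ± 0.31), and Fcgr3, one of the genes behind the FcgR stain, at 9.41 and 137 (-3.85 ± 0.32). Over all pools, globin-low Car1 cells were low in both as well, with 14.5 CPM of Cd34 and 9.46 of Fcgr3 against 13.1 and 7.47 in members (14 and 8 UMIs), too few to test.

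What fell most against globin-low Car1 cells was Apoe, the apolipoprotein E gene. It stood at 0, 37.5 and 85.3 CPM in the lowest, median and highest pool of members and at 340, 388 and 556 in those cells (-3.32 ± 0.17, adjusted p = 1.69e-59), with no overlap. The fall against all other cells was -3.12 ± 0.17. Ptprcap, whose product associates with CD45, followed at 0, 26.2 and 62.4 CPM against 130.4, 202 and 242 (-2.48 ± 0.22), and S100a10, which encodes the partner of annexin A2, at 0, 53.3 and 83.2 against 159, 215 and 399 (-2.16 ± 0.19), neither with overlap. The argininosuccinate synthase gene Ass1 (-2.20), Arhgdib (-1.88), Crip1 (-1.66), the immunoproteasome gene Psmb8 (-1.56), the joined rows Cyba;AK154184 (-1.53) and Laptm5;AK171116 (-1.38), Txnip (-1.27), Por (-1.27) and Kcnab2 (-1.24) made up the rest of the 12 largest. Apoe also stands in the list of early progenitor markers, of which 6 of 6 tested fell against all other cells (median -3.36).

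Against all other cells the 12 genes that fell most included several of granulocytes and monocytes. Elane, the neutrophil elastase gene, stood at 91.7, 166 and 222 CPM in members and at 2499, 3757 and 5128 in all other cells (-4.58 ± 0.08). Irf8, a factor of monocytes and dendritic cells, had 0, 10.4 and 14.6 CPM against 199, 247 and 284 (-5.08 ± 0.28). Tnfrsf1a (-5.71), Hdc (-4.79), Ckap4 (-4.62), Rgs19 (-4.54), Plac8 (-4.52), Rin3 (-4.39), Anxa2 (-4.35) and Limd2 (-4.34) fell with them, besides Sfpi1 and Cebpa. For all 12 the pool ranges did not overlap, where 5.03% of genes tested lay fully below. Over all pools, globin-low Car1 cells were also low, at 203 CPM of Elane and 15.2 of Irf8, against 161 and 11.2 in members. Sfpi1 and Cebpa stood at 15.8 and 9.73 CPM in globin-low Car1 cells, against 9.33 and 7.47 in members.

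Markers of other cell types were counted in the members to see what the set holds besides erythroid transcripts. Neutrophil markers summed to 1083, 1869 and 2747 CPM in the lowest, median and highest pool of members, overlapping the 1341 to 3176 of globin-low Car1 cells and far under the 28322 to 41927 of cells with Car1 under 0.2%. Of 13 such markers with a UMI in the unsorted pools 11 were seen in members, and Lcn2 and S100a9 were at 0. Most of it was Mpo, at 1160 UMIs (1082 CPM), close to the 1246 CPM of globin-low Car1 cells. Monocyte and dendritic markers summed to 337 to 641 CPM, with Ccr2, Klf4 and Mpeg1 at 0, and basophil and mast markers to 30.6 to 184, with Cpa3, Cyp11a1, Fcer1a, Gzmb and Ms4a2 at 0. Megakaryocyte markers summed to between 0 and 213 CPM, with Itgb3, Ppbp, Clec1b, F2rl2, Rab27b, Selp and Treml1 among those at 0 and 10 UMIs of Pf4. Macrophage markers, counted because erythroblasts mature on macrophages, summed to between 0 and 72.2 CPM, with Axl, Cd5l, Emr1, Maf, Mertk, Mrc1 and Timd4 at 0. The part of free RNA in these low sums was not tested.

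Among Car1 cells, several genes followed the globin share in steps. The 1043 Car1 cells were split into 647 with no globin UMI, 329 with a share above 0 and up to 0.1% (98 of them members), 60 between 0.1% and 0.5% (58 members) and 7 above that, which are too few to read. Ctse stood at 279, 600 and 1320 CPM in the first 3 bins, and Hemgn at 170, 306 and 530. Klf1 went from 1034 to 1117 and 1343 CPM and Gata1 from 377 to 430 and 441, much smaller steps. In the other direction, Apoe stood at 584, 103 and 36.2 CPM, Gata2 at 152, 49.2 and 9.88, the Kit row at 207, 134 and 49.4, Myb at 828, 528 and 323, and Myc at 796, 598 and 435. Rrm2, of S phase, stood at 151, 237 and 369. The bins differed in depth, with medians of 3311, 6064 and 5019 UMIs, and the second bin was deeper than the third. Since the members fill most of the third bin, these steps restate the comparison above with a finer cut and carry no test.

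**Figure D5:**
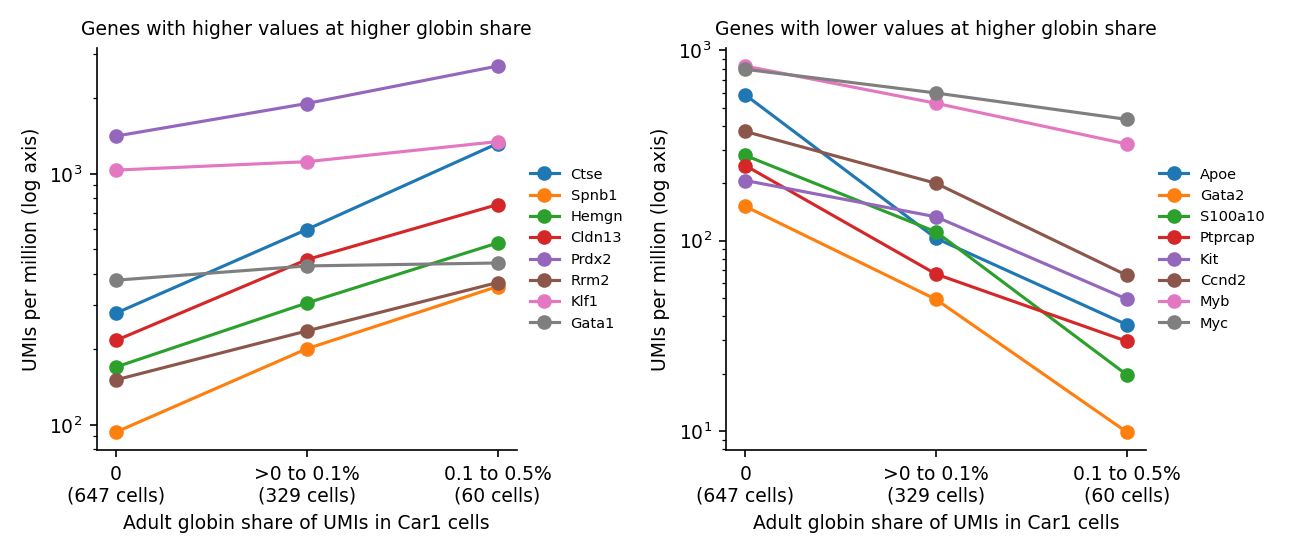
Levels of named genes (y axes, CPM, log axis) in Car1 cells grouped by the share of their UMIs that were adult globin (x axis). Points are sums over all cells of a bin, with no error drawn. Ctse goes from 279 to 1320 and Apoe from 584 to 36.2 between the outer bins, while Klf1 and Gata1 change least among the genes in the left panel.

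The same thresholds were then applied to pools the rule had not used. Cebpa itself, the targeted gene, stood at 0 to 4.00 CPM over all kept cells of the 8 knockout pools and at 73.8, 87.8, 152 and 115 CPM in control replicates 3, 4, 5 and 6, so no knockout pool overlapped the control. In the control of the Cebpa knockout 63 of 558 cells (11.3%) qualified, and in the knockout itself 101 of 847 (11.9%, pools 7.82% to 17.6%). The control pools disagreed among themselves, with 18.3% and 19.1% in replicates 3 and 4, whose strain label, with Mx1-Cre, is that of the knockout although their Cebpa level is not, and 0.855% and 0.870% in replicates 5 and 6, labelled without it. The gates of common myeloid progenitors, which select CD34+ FcgR(low) cells, held 1 such cell of 336 in the CD41 gate (0.298%), 0 of 380 in the Flt3+ Csf1r+ gate (which allows up to 0.789%) and 0 of 743 in the Irf8-GFP+ MHCII+ gate (up to 0.404%). Every group carries 1 mouse identifier, so no test was made between groups.

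Within the Cebpa pools, members were compared with all other cells of the same pool, in the 2 control pools (replicates 3 and 4) and 6 knockout pools with at least 10 members. In the control 324 of 5430 genes rose (5.97%) and 544 fell (10%), and in the knockout 472 of 3643 rose (13%) and 491 fell (13.5%). DESeq2 called 32 and 102 in the control and 226 and 291 in the knockout. Of the genes that had risen in unsorted members, 627 of 685 tested (91.5%) had a positive log2 ratio in the control and 515 of 586 (87.9%) in the knockout, where 49.1% and 50.5% of all genes tested were positive. Of those that had fallen, 742 of 785 (94.5%) and 505 of 578 (87.4%) were negative. In the control 0 of these genes were called in the opposite direction, and in the knockout 16 were, 9 that had risen in unsorted members and 7 that had fallen.

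For single genes, log2 ratios in the unsorted, control and knockout pools were 1.90, 1.73 and 1.89 for Ctse, 1.85, 1.64 and 1.76 for Spnb1, and 1.73, 1.77 and 1.39 for Hemgn. Tmem14c of heme synthesis had 0.91, 0.89 and 1.18, and Prdx2 had 1.01, 1.05 and 0.87. Apoe (-3.12, -2.25 and -2.61), Gata2 (-2.37, -2.23 and -3.18), Myb (-0.64, -1.03 and -1.31) and the joined Kit row (-0.72, -1.39 and -1.44) fell in all 3. Among erythroid regulators the ratios were 0.92, 0.82 and 0.23 for Gata1 (knockout adjusted p = 0.215), 1.21, 1.01 and 0.47 for Epor, 0.79, 0.67 and 0.30 for Zfpm1, and 0.89, 0.97 and 0.68 for Klf1 (knockout adjusted p = 1.28e-11). Differences between sets were not tested. The cells they were compared with also differed, since 536 of 847 knockout cells (63.3%) and 180 of 558 control cells (32.3%) reached the Car1 threshold, against 1043 of 2732 unsorted cells (38.2%).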

How the data were processed

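Cells were profiled by MARS-seq. The deposited table holds raw UMI counts for 27297 gene rows, of which 2109 join several symbols and are uncertain, and the authors' well table holds plates, batches and index-sort intensities of CD34 and FcgR, whose unit is not stated. The submitters' processing notes name bcl2fastq (2.15.0.4) and mm9. Which aligner was run is not stated in the sources used here. For 36 pools label and well table name 1 group, and tests used only these, while 18 were left out. No doublet caller was run on these singly sorted wells. Among 120 pairs of unsorted pools the smallest chi-square divided by its degrees of freedom, 1.25, left no pair to merge.

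UMIs were summed per pool and class and tested with edgeR 4.0.16 in R 4.3.3 (quasi-likelihood, TMM, filterByExpr, Benjamini-Hochberg over all genes tested, threshold 0.05). The pool was a block, since both sums came from 1 pool. Pools with under 10 members, 5 of 16, did not enter. CPM carry no TMM scaling, and ± after a log2 ratio is its SE. Surface intensities and genes per cell had exact paired permutation tests over pools.

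Genes were named for the 12 largest ratios in each direction (adjusted p under 0.05, at least 100 CPM, 1 sign in every pool), for the smallest p in a list, or as preset names. Members, gene lists and this rule were chosen with earlier results of these data known. In simulated data, 85% of 2-fold and 94% of 4-fold changes were found against all other cells (4560 genes, 2.72% of calls false), and 91% and 85% against globin-low Car1 cells (2740 genes, 6.38% false). The simulated pools shared 1 expression profile and differed in depth only, with 200 genes changed, fewer than were called in the data. Changed genes too sparse to test counted as not found. The rates therefore hold for that setting and may not hold for the real comparisons. Alternatives included DESeq2 1.42.0, no block and other thresholds. Wells of 4000 to 8000 UMIs, smaller member minimums, leaving out pools from edgeR fits, shares and surface values by batch, and surface values from thinned wells were chosen after seeing the data. Promoters came from RefSeq, where 24 of 33 erythroid genes looked up had an entry, and transcripts from GENCODE M21. A few genes are not reported here.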

Additional observations from a re-analysis of the deposited data

Results flagged for a closer look

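The plate of replicates 15 and 16 had the lowest share of members among 8 plates, 1.67%, and its gap to the next plate (5.62%) was wide for the whole range. In batch SB17 the share of replicate 2, 9.60%, stood apart in the same way from the other 3 pools (5.29% to 5.95%). By chance about 1 in 20 groups shows such a gap. With membership read from wells thinned to 1000 UMIs, replicate 15 held 10 members beside 149 other cells. The lowest pool share was then 3.23%.

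The glutathione peroxidase gene Gpx1 had a log2 ratio of members to all other cells of 0.24 in the Cebpa knockout pools and of -0.27 in the unsorted pools, with opposite signs in every pool of each set. The difference itself was not tested.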

How the results depend on the processing

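Of the genes named against all other cells, 95 passed, with 0 reversed in 27 settings. Of these, 68 passed under every setting in which they were tested, which for some was fewer than 27. Against globin-low Car1 cells 70 passed, 33 of them under every setting in which they were tested, of 26 run. Sphk1 changed sign there with 10 globin UMIs (-0.0017). Counts of genes higher and lower against all other cells, 692 and 800, were 640 to 715 and 730 to 793 on leaving out 1 pool, 270 and 444 in batch SB17, and 308 and 275 in wells of 4000 to 8000 UMIs. Genes higher were 1058 with plates as units, 295 with globins at 0.1% or more of UMIs and 111 with 10 globin UMIs. Genes lower were 1909 without the filter. Without the replicate block, in which both sums of a pool are paired, they were 555 and 693. Against globin-low Car1 cells the 225 and 174 genes were 184 to 227 and 145 to 180 on leaving out 1 pool, 148 and 107 with no replicate block, 116 and 81 with DESeq2, 149 and 479 without the filter, 126 and 98 with membership from thinned wells, 46 and 44 in batch SB17, 70 and 77 with 10 globin UMIs, and 113 and 74 in wells of 4000 to 8000 UMIs. With plates as units 287 were lower. DESeq2 called 32 and 102 genes in the Cebpa control and 226 and 291 in the Cebpa knockout, where 870 were lower without the filter. Leaving out 1 knockout pool gave 354 to 420 higher and 393 to 503 lower. The cause of these moves was not tested. Batch SB17 entered with 3 pools. The range of depth entered with 13 pools and with fewer genes, 2428 against all other cells and 1616 against globin-low Car1 cells. The share of members was 1.06% with 10 globin UMIs, 2.45% with globins at 0.1% and 3.11% with Car1 at 0.5%. CD34 differed from globin-low Car1 cells by -2.14 with pool means, 11.5 with 10 globin UMIs, 0.78 with thinned wells and 3.75 in batch SB17. FcgR differed from them by -12.6 with 10 globin UMIs (exact paired permutation, adjusted p = 0.0703) and -22.1 in batch SB17. In batch SB17 CD34 and FcgR differed from all other cells by -142.6 and -302.25, where 4 pools cannot reach the threshold. Globins at 0.1% and 10 globin UMIs with 10 or more members per pool, and the Cebpa control without replicate 3 or 4, were not run because too few cells or pools remained.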

Other observations

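Over 33 sums of a pool and class (members, globin-low Car1 cells and cells with Car1 under 0.2%), the genes whose levels went most closely with the summed adult globins were Ift140 (Pearson r of log2(CPM + 10) 0.81), Tmem8 (0.81), Eid1 (0.81), Hemgn (0.79), Ctse (0.79), Slc43a3 (0.78), Wipi2 (0.78) and Cnp (0.77). The sums share pools, and the classes were cut on globin itself, so these values only rank genes. Ift140, of the machinery of cilia, stood at 58.5, 124 and 183 CPM in the lowest, median and highest pool of members and at 21.5, 51.5 and 90.7 in globin-low Car1 cells.

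The embryonic globin genes, at 0 in the unsorted pools, had a few UMIs in the Cebpa pools. Hba-x had 20 UMIs in 3 knockout cells and 3 UMIs in 2 control cells. Hbb-y had 7 UMIs in 2 knockout cells and 33 in 3 control cells, of which 1 cell held 31.

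Further lists are given by their counts. Over all genes tested, 14.8% rose and 17.1% fell against all other cells, and 7.94% rose and 6.14% fell against globin-low Car1 cells. Against all other cells, chaperone genes rose in 8 and fell in 4 of 16, proteasome subunit genes in 7 and 3 of 31, mitochondrial ribosomal protein genes in 6 and 2 of 60, respiratory chain genes in 11 and 4 of 78, ribosome biogenesis genes in 4 and 2 of 25, and interferon-stimulated genes in 1 and 4 of 6. With globin-low Car1 cells as the comparison these counts were 0 and 1 of 15, 3 and 3 of 29, 1 and 0 of 55, 0 and 1 of 72, 0 and 4 of 23, and 0 and 1 of 5.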
